A study of Mus musculus with 13 samples.

Results

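The transcription factors of the integrated stress response (ISR) were read from the microarrays as every transcript cluster (the gene-level probe set of the array) that the platform annotation names Atf4, Atf5, Ddit3, Cebpg, Cebpb, Nupr1, Trib3, Atf3 or Myc. The 9 genes had 10 clusters among the 22206 clusters on the array, since Ddit3 had 2. The RNA came from whole hearts of OMA1+/- C10 G58R mice aged 33 weeks, all carrying the G58R form of CHCHD10 (C10), a protein of the mitochondrial intermembrane space, and all with 1 functional Oma1 allele. The mice had received OMA1 ASO2 (3 arrays) or OMA1 ASO1 (5 arrays), both antisense oligomers against Oma1, or the nontargeting CTRL ASO (5 arrays), given weekly at 50 mg/kg, and each array was 1 mouse. Hearts without the G58R mutation and untreated hearts were not part of the comparison.

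In the ISR, kinases that sense different stresses phosphorylate eIF2, general protein synthesis slows, and the mRNA of ATF4 is translated more. The protease OMA1, once activated in the mitochondrial inner membrane, cleaves DELE1, which then activates the kinase HRI (encoded by Eif2ak1). ATF4 and its relatives of the bZIP family bind DNA as dimers, and ATF5, CHOP (encoded by Ddit3) and ATF3 are bZIP proteins that are themselves induced in the response. C/EBPγ (Cebpg) and C/EBPβ (Cebpb) are dimer partners of ATF4. Not all of the genes encode DNA-binding factors: Nupr1 encodes a small nuclear stress protein that acts through chromatin and other factors, and Trib3 a pseudokinase that is an ATF4 and CHOP target and binds ATF4. Myc, a helix-loop-helix factor, responds to growth signals as well as to mitochondrial stress.

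Many target genes of ATF4 hold a composite site for ATF4 with a C/EBP partner, the C/EBP-ATF response element (CARE). The RefSeq promoter windows (GRCm38.p6) run from 250 bases before to 50 bases after a gene's start. A window was found for 8 of the 9 genes, Atf5 having 2 and Myc none in the table used. They were searched on both strands for CARE (TGATGNAA, or TTNCATCA on the other strand), for the cAMP response element TGACGTCA, and for the E-box CACGTG that MYC dimers bind. The windows of Nupr1, Trib3 and Atf3 held CARE letters, which 3.97% of all 32851 windows held. Only the Nupr1 window held an E-box (7.15% of all windows), and no window of the 9 genes held TGACGTCA (1.79% of all windows). A match is only a description of the letters. The 3 windows with CARE letters are shown because Nupr1 and Trib3 passed the test below and Atf3, with the same letters, did not. Matches are in capitals, the first one of Nupr1 being the E-box and all others CARE.
Nupr1, chr7:126625421-126625720, minus strand: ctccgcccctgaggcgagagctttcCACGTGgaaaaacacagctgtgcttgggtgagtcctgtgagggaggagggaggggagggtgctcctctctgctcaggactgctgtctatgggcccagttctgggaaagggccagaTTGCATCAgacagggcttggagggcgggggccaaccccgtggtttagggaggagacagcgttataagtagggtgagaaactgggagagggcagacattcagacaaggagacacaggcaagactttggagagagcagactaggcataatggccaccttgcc
Trib3, chr2:152344011-152344310, minus strand: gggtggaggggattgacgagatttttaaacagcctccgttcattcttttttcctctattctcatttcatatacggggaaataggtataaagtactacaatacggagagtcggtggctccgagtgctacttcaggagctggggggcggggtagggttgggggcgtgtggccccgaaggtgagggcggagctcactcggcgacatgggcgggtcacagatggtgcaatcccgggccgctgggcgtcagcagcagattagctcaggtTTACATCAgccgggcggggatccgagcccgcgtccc
Atf3, chr1:191183284-191183583, minus strand: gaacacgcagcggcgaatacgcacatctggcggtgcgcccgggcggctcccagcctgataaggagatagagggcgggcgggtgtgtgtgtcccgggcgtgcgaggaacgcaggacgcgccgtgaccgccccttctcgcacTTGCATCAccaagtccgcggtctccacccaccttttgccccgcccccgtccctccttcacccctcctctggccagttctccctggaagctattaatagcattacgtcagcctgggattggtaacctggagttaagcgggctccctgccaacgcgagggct
The CARE letters began 110 bases before the start in both Nupr1 and Atf3 and 14 bases after it in Trib3.

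Values are log2 signals, so that a difference of 1 is a 2-fold difference. The median signal was 5.24 to 5.34 on all arrays. Each array holds 23 groups of background probes, and a cluster counted as above background where its signal passed the brightest of them, which lay at 5.77 to 6.07. Oma1 was below background on every OMA1 ASO array, at 4.65, 3.74 and 5.31 with OMA1 ASO2 and 5.48, 4.83, 4.44, 5.28 and 4.91 with OMA1 ASO1, against 9.38, 9.13, 9.83, 9.35 and 9.36 with CTRL ASO. Oma1 thus fell at least 10.7-fold (fitted log2 fold change -4.58 ± 0.24 SE, adjusted p = 7.08e-09). One array stood apart before any comparison. The array of OMA1 ASO1 replicate 5 correlated least with its own group (mean r 0.974, against 0.984 to 0.990 for the other 12 arrays), and its 19 measured immediate early genes, which respond within minutes to many stimuli, averaged 10.33, against 7.16 to 7.52 on the other OMA1 ASO1 arrays, 7.12 to 8.44 with OMA1 ASO2 and 7.13 to 7.98 with CTRL ASO. It was the highest of the 13 arrays for 12 of these 19 genes and the lowest for 5 of the 7 measured fibroblast markers. The main results for the factors are given with and without this array where they rest on it. Of 10 cardiomyocyte markers, 9 were above background on some arrays and none passed the test in any comparison. The means of the lymphocyte, granulocyte and adipocyte markers were below background on all arrays (2.91 to 4.58), and 1 lymphocyte marker was above it on some. Genes of the Y chromosome were above background on 0 of 3 OMA1 ASO2, 2 of 5 OMA1 ASO1 and 2 of 5 CTRL ASO arrays. By these genes, sex was mixed and not balanced, with no male among the OMA1 ASO2 arrays. Sex and OMA1 ASO2 can thus not be fully told apart in its comparisons. In whole hearts, fewer cells of a type and less RNA per cell cannot be told apart.

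Across both OMA1 ASOs, 7 of the 10 clusters, of 6 genes (Atf4, Atf5, Ddit3, Cebpg, Nupr1 and Trib3), were lower than with CTRL ASO and none was higher, at an adjusted p under 0.01 (limma, Benjamini-Hochberg over all clusters). Of all 22206 clusters, 0.806% were lower by the same rule, and 1.04% passed in either direction. The same 7 clusters did not overlap between the 8 OMA1 ASO and the 5 CTRL ASO arrays, as did 1.39% of all clusters in that direction. The log2 fold changes of the 10 clusters had a median of -1.997, beside 0.01 over all clusters. Myc, Atf3 and Cebpb did not pass. The plot of signals by array shows the separation and the array that stood apart.

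**Figure D1:**
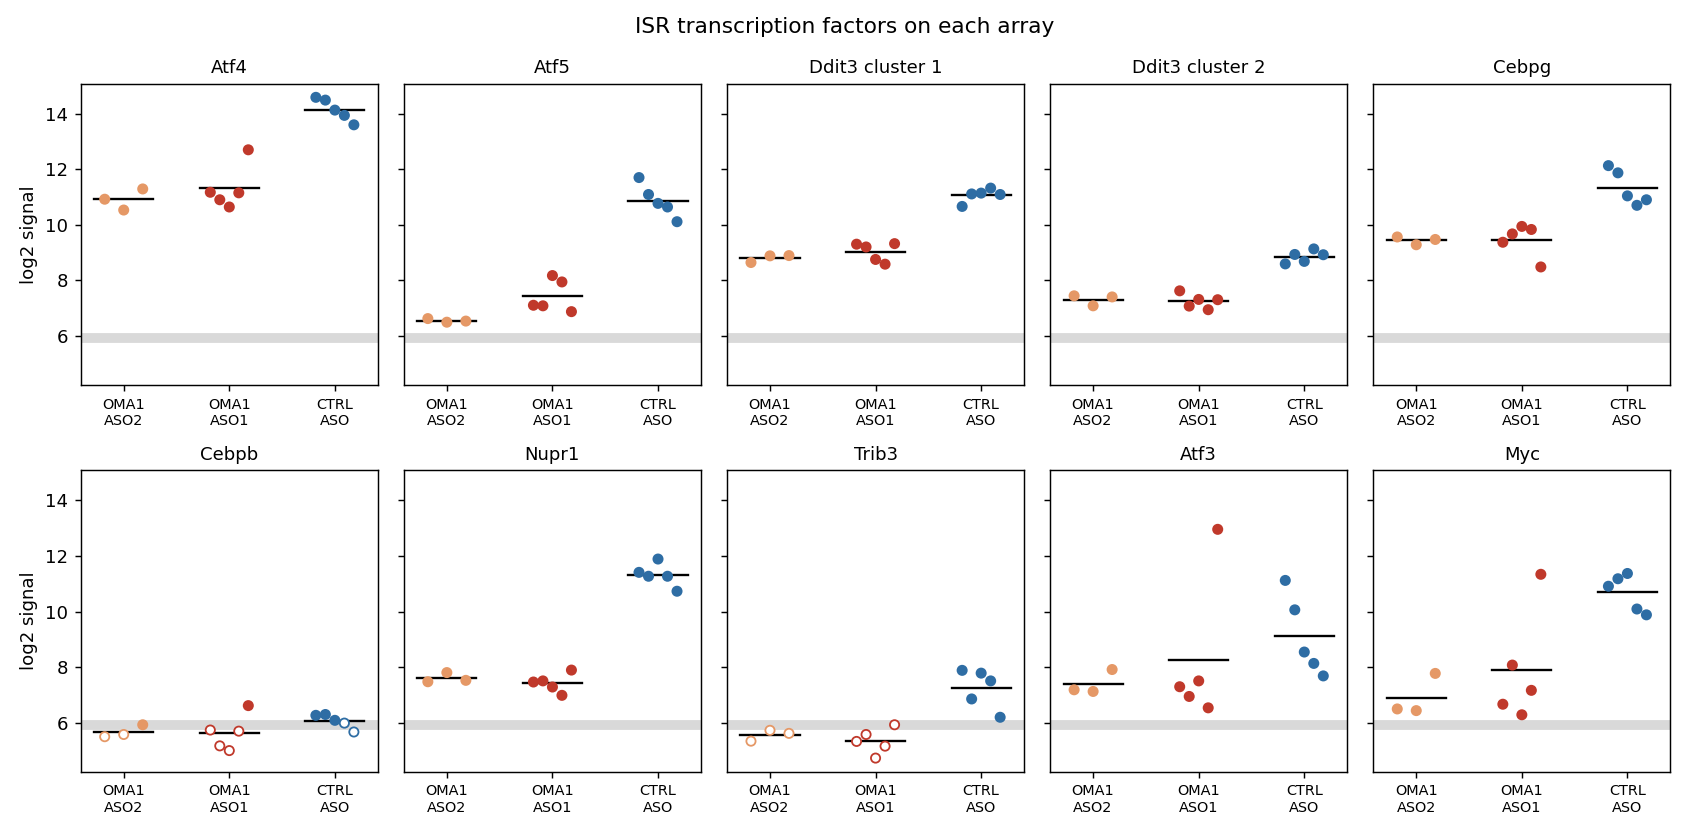
Log2 signal (vertical axis) of each of the 10 clusters on each array, with OMA1 ASO2 (n = 3), OMA1 ASO1 (n = 5) and CTRL ASO (n = 5) from left to right, and bars at the treatment means. The grey band spans the background of the arrays (5.77 to 6.07) and open points lie below their own array's background. Nupr1 separates with the widest gap, Trib3 is open on every OMA1 ASO array, and 1 OMA1 ASO1 array lies far above the others in Atf4, Atf3 and Myc.

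Atf4, the factor at the centre of the response, had signals of 10.92, 10.53 and 11.29 with OMA1 ASO2 and 11.17, 10.90, 10.64, 11.15 and 12.70 with OMA1 ASO1, against 14.59, 14.49, 14.13, 13.94 and 13.60 with CTRL ASO. Every OMA1 ASO array lay below every CTRL ASO array, the nearest being OMA1 ASO1 replicate 5. The means were 11.16 ± 0.67 (SD, n = 8) with OMA1 ASO and 14.15 ± 0.41 (SD, n = 5) with CTRL ASO, a log2 fold change of -2.99 ± 0.29 (SE, 7.95-fold lower, adjusted p = 5.44e-06 by limma). Without OMA1 ASO1 replicate 5 it was -3.21 ± 0.19 (adjusted p = 1.47e-08).

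Atf5, a bZIP factor whose mRNA is translated under eIF2 phosphorylation much as that of Atf4, had signals of 6.62, 6.49 and 6.53 with OMA1 ASO2 and 7.10, 7.08, 8.17, 7.94 and 6.87 with OMA1 ASO1, against 11.70, 11.09, 10.77, 10.64 and 10.11 with CTRL ASO. The OMA1 ASO2 arrays were the 3 lowest and close to each other (SD 0.07, n = 3), and no OMA1 ASO array overlapped with CTRL ASO. Over both ASOs, Atf5 fell 13.6-fold, a log2 fold change of -3.76 ± 0.30 (SE, adjusted p = 5.90e-07).

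Ddit3, which encodes the pro-apoptotic factor CHOP, was measured by a cluster placed on the genome (cluster 1) and by one that the array lists as unmapped (cluster 2). Cluster 1 gave 8.64, 8.88 and 8.89 with OMA1 ASO2 and 9.30, 9.20, 8.75, 8.58 and 9.32 with OMA1 ASO1, against 10.66, 11.11, 11.14, 11.32 and 11.09 with CTRL ASO. Its spread was narrow, with SDs of 0.30 (n = 8) with OMA1 ASO and 0.25 (n = 5) with CTRL ASO. Cluster 1 fell 4.34-fold (log2 fold change -2.12 ± 0.17 SE, adjusted p = 5.90e-07). Cluster 2 also separated the treatments, at 6.94 to 7.62 with OMA1 ASO and 8.59 to 9.13 with CTRL ASO, with a log2 fold change of -1.58 ± 0.15 (SE, adjusted p = 4.65e-06). The clusters deviated together from the treatment means only in part (Pearson r = 0.55 over 13 arrays, a description).

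Cebpg, a short C/EBP that lacks an activation domain and pairs with ATF4, had signals of 9.56, 9.28 and 9.47 with OMA1 ASO2 and 9.37, 9.67, 9.94, 9.83 and 8.48 with OMA1 ASO1, against 12.13, 11.87, 11.04, 10.70 and 10.90 with CTRL ASO. No arrays overlapped, and OMA1 ASO1 replicate 5, which was high in Atf4, was here the lowest of all 13. Cebpg fell 3.67-fold (log2 fold change -1.88 ± 0.26 SE, adjusted p = 0.000395), and the log2 fold change was -1.74 ± 0.23 without that array (adjusted p = 0.000187).

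Nupr1 had the smallest p-value of all clusters in this comparison. Its signals were 7.47, 7.80 and 7.52 with OMA1 ASO2 and 7.46, 7.50, 7.28, 6.98 and 7.89 with OMA1 ASO1, against 11.41, 11.27, 11.89, 11.27 and 10.73 with CTRL ASO. The gap between the highest OMA1 ASO array and the lowest CTRL ASO array was wider than the range within either treatment. Nupr1 fell 14.2-fold (log2 fold change -3.83 ± 0.19 SE, adjusted p = 4.27e-09).

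Trib3 was below background on all 8 OMA1 ASO arrays, at 5.33, 5.72 and 5.61 with OMA1 ASO2 and 5.32, 5.57, 4.72, 5.15 and 5.92 with OMA1 ASO1, and above it on all 5 CTRL ASO arrays, at 7.88, 6.85, 7.78, 7.50 and 6.19. The lowest CTRL ASO array stood only just above background. Trib3 fell at least 2.36-fold when the higher of the background and the measured value stood for each OMA1 ASO array (fitted log2 fold change -1.82 ± 0.26 SE, adjusted p = 0.000499).

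Myc was the gene whose call over both ASOs changed without 1 array, and also when arrays or ASOs were weighted otherwise. It had signals of 6.49, 6.43 and 7.77 with OMA1 ASO2 and 6.66, 8.07, 6.28, 7.16 and 11.34 with OMA1 ASO1, against 10.91, 11.18, 11.37, 10.09 and 9.88 with CTRL ASO. All OMA1 ASO arrays lay below every CTRL ASO array except OMA1 ASO1 replicate 5, which lay at the upper end of the CTRL ASO range. The log2 fold change was -3.16 ± 0.65 (SE, adjusted p = 0.0120), which missed the threshold of 0.01, and -3.71 ± 0.33 without that array (adjusted p = 1.94e-06).

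Atf3, a stress factor that is also an immediate early gene, varied most within OMA1 ASO1 and CTRL ASO, though not within OMA1 ASO2. It had signals of 7.18, 7.12 and 7.91 with OMA1 ASO2 and 7.29, 6.94, 7.50, 6.53 and 12.96 with OMA1 ASO1, against 11.12, 10.06, 8.54, 8.13 and 7.68 with CTRL ASO. The highest of all 13 values belonged to OMA1 ASO1 replicate 5, and the CTRL ASO arrays alone ran from 7.68 to 11.12. The log2 fold change was -1.18 ± 0.86 (SE, 95% interval -2.98 to 0.63, adjusted p = 0.647). Without OMA1 ASO1 replicate 5 it was -1.90 ± 0.45 (adjusted p = 0.0270), which also missed the threshold of 0.01.

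Cebpb, which encodes a C/EBP factor of inflammation and of the late ISR, was near background throughout. It was above background on 1 of 3 OMA1 ASO2 arrays, 1 of 5 OMA1 ASO1 arrays and 3 of 5 CTRL ASO arrays, with ranges of 5.49 to 5.92, 4.99 to 6.61 and 5.66 to 6.29 in that order. The log2 fold change was -0.41 ± 0.22 (SE, adjusted p = 0.479), and most of its values gave only a bound.

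Each ASO was then set against CTRL ASO on its own, in a model that took 1 spread from all 13 arrays. The comparisons share the CTRL ASO arrays. With OMA1 ASO2, 6 of the 10 clusters were lower, where 0.576% of all clusters were lower and 0.761% passed in either direction. With OMA1 ASO1, 7 were lower, where 0.721% of all clusters were lower and 0.919% passed in either direction. The groups did not overlap for 8 clusters with OMA1 ASO2 and for 7 with OMA1 ASO1, beside 4.81% and 2.39% of all clusters in the same order. The log2 fold changes of Atf5 were -4.31 ± 0.33 (SE, adjusted p = 1.15e-06) for OMA1 ASO2 and -3.43 ± 0.29 (SE, adjusted p = 2.41e-06) for OMA1 ASO1. Those of Nupr1 were -3.72 ± 0.25 for OMA1 ASO2 and -3.89 ± 0.21 for OMA1 ASO1, and those of Atf4 were -3.24 ± 0.37 for OMA1 ASO2 and -2.84 ± 0.32 for OMA1 ASO1. Trib3 passed with OMA1 ASO1 (at least 2.32-fold lower, adjusted p = 0.00160) and not with OMA1 ASO2 (at least 2.43-fold lower, adjusted p = 0.0152), although its groups did not overlap in either. Without OMA1 ASO1 replicate 5 or CTRL ASO replicate 5 it passed with OMA1 ASO2 too (adjusted p = 0.00701 and 0.00183). Cebpg only just passed with OMA1 ASO2 (log2 fold change -1.89 ± 0.35 SE, adjusted p = 0.00730) and lost its call when most single arrays were left out (adjusted p up to 0.0589). With the mean of the Y-linked genes as a covariate, Cebpg also lost its call (limma adjusted p = 0.0148), and 5 of the 10 clusters were lower with OMA1 ASO2. Myc passed with neither (adjusted p = 0.0225 for OMA1 ASO2 and 0.0552 for OMA1 ASO1). In a fit of only the 2 treatments compared, Myc passed for OMA1 ASO2 (log2 fold change -3.79 ± 0.38 SE, limma adjusted p = 7.31e-05) and not for OMA1 ASO1. Its 3 OMA1 ASO2 arrays were all below the CTRL ASO arrays, and without OMA1 ASO1 replicate 5 it passed with both (adjusted p = 3.83e-05 for OMA1 ASO2 and 2.07e-05 for OMA1 ASO1).

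**Figure D2:**
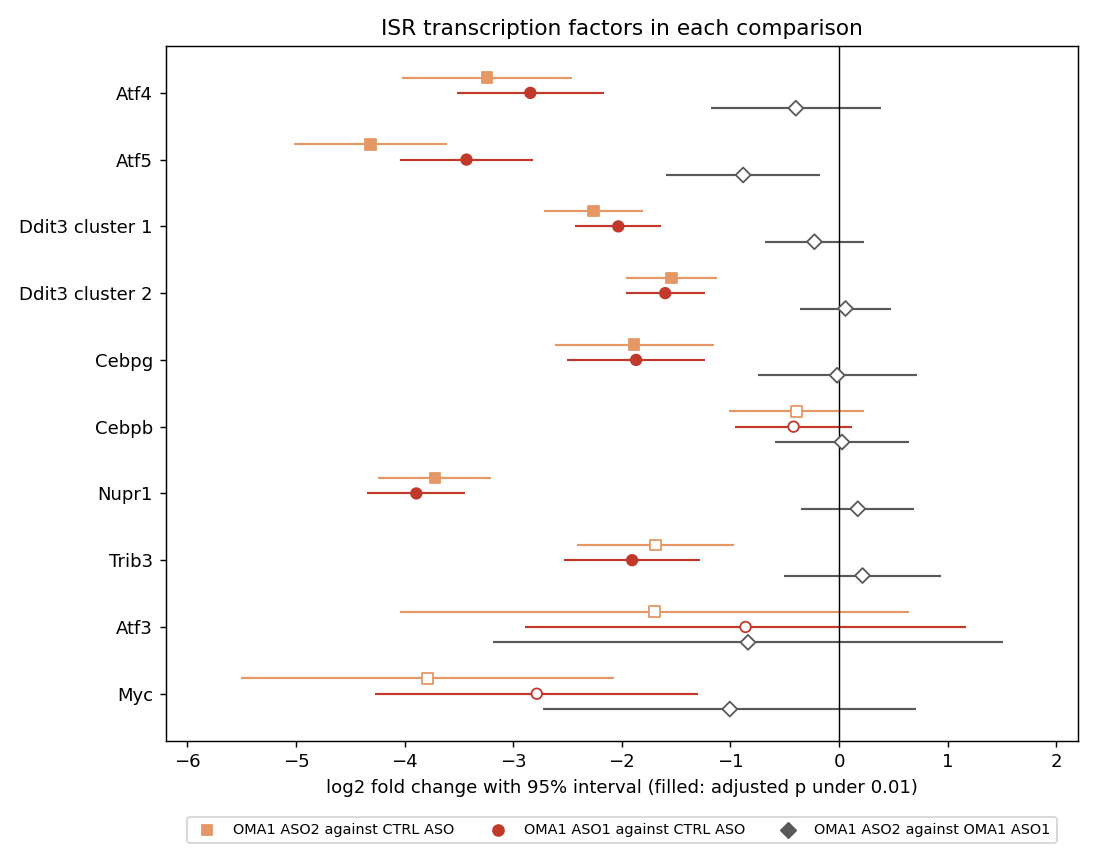
Log2 fold changes (horizontal axis) with 95% intervals of the 10 clusters for OMA1 ASO2 against CTRL ASO, OMA1 ASO1 against CTRL ASO and OMA1 ASO2 against OMA1 ASO1, where filled symbols passed an adjusted p under 0.01. The intervals of Atf3 and Myc are the widest, and no difference between the ASOs is filled.

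The difference between the ASOs was itself tested. None of the 10 clusters passed for OMA1 ASO2 against OMA1 ASO1 (limma, smallest adjusted p = 0.503), where 0.104% of all clusters did (0.036% lower and 0.0675% higher), and 1 of the 10 had an unadjusted p under 0.05. That cluster was Atf5, with a difference of -0.88 ± 0.33 (SE, 95% interval -1.59 to -0.18, adjusted p = 0.503). Its 3 OMA1 ASO2 arrays lay below all 5 OMA1 ASO1 arrays, which was so for 2.31% of all clusters. For Nupr1 the difference was 0.17 (95% interval -0.35 to 0.69), for Atf4 -0.40 (-1.18 to 0.38), for Cebpg -0.02 (-0.75 to 0.71), and for Ddit3 cluster 1 -0.23 (-0.68 to 0.23). The intervals of Myc (-2.72 to 0.71) and Atf3 (-3.18 to 1.51) were the widest, so these arrays do not show that the ASOs act alike on them.

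The pathway above and around the factors was read from lists of genes, each gene taken by its brightest cluster. Of 16 measured genes of the eIF2 arm, 2 were lower and none higher over both ASOs, where 0.806% of all clusters were lower. They were Oma1, the targeted gene itself, and Eif2s2, the beta subunit of eIF2. Eif2s2 was at 16.01 ± 0.22 (SD, n = 8) with OMA1 ASO and 17.09 ± 0.23 (SD, n = 5) with CTRL ASO (log2 fold change -1.08 ± 0.15 SE, limma adjusted p = 0.000394). Dele1, which carries the signal out of the mitochondrion, differed by 0.05 ± 0.20 (SE, adjusted p = 0.965), and Eif2ak1 by 0.09 ± 0.14 (SE, adjusted p = 0.882). The list's median log2 fold change was -0.25. These arrays measure mRNA, so cleavage of DELE1 and phosphorylation of eIF2 were not seen.

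Of 42 measured bZIP relatives, 1 was lower over both ASOs and none higher, where 0.806% of all clusters were lower. The median log2 fold change was -0.09, and a count of 1 is not read as a change of the family. That gene was Nfe2l1, a factor of proteasome and metabolic genes. Its means were 15.23 ± 0.34 (SD, n = 8) with OMA1 ASO and 16.14 ± 0.05 (SD, n = 5) with CTRL ASO (log2 fold change -0.92 ± 0.17 SE, limma adjusted p = 0.00472). Atf6, the membrane-bound factor of the endoplasmic reticulum stress response, followed with -0.93 ± 0.20 (SE) and an adjusted p of 0.0144. Without OMA1 ASO1 replicate 5, a count added after seeing the data, 2 of the bZIP relatives were lower over both ASOs and none higher. Of all 22206 clusters, 317 then passed in either direction. None of 12 measured genes of the MYC network, of 6 relatives or partners of Trib3 and Nupr1 (Trib1, Trib2, Nupr1l, and the tribbles partners Cop1, Akt1 and Akt2) or of 19 immediate early genes passed in any of the comparisons (limma). Over both ASOs, 1.04% of all clusters passed in either direction, so a short list without a call is near that share. The median log2 fold changes over both ASOs were 0.08 for the MYC network and 0.26 for the immediate early genes.

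Some of the genes that ATF4 or CHOP are known to activate fell and others did not pass. Over both ASOs, 18 of the 31 measured were lower, 13 did not pass and none passed as higher, where 0.806% of all clusters were lower. The list's median was -1.40 on the log2 scale. Without OMA1 ASO1 replicate 5, a count added after seeing the data, 18 were lower as well. The list was chosen with results of these arrays known. Mthfd2, a mitochondrial folate enzyme, had a log2 fold change of -5.41 ± 0.41 (SE, adjusted p = 3.31e-07), Slc7a5, a leucine transporter, -4.31 ± 0.36 (SE, adjusted p = 8.34e-07), and Asns, asparagine synthetase, -4.18 ± 0.27 (SE, adjusted p = 3.78e-08). Aldh18a1, the first enzyme of proline synthesis, and Psat1, of serine synthesis, had log2 fold changes of -2.83 and -3.43. Phgdh, also of serine synthesis, and Chac1, which degrades glutathione, were below background on every OMA1 ASO array and at least 3.48-fold and 3.90-fold lower. The log2 fold changes of the tRNA synthetases Gars, Sars and Nars were -2.40, -2.43 and -1.80. Stc2, which encodes a secreted glycoprotein (-1.06, adjusted p = 0.0835), and Herpud1, of endoplasmic reticulum protein degradation (-0.63, adjusted p = 0.219), did not pass. Sesn2 (-0.82, adjusted p = 0.122) was below background on all arrays, and Fgf21 (-1.08, adjusted p = 0.110) was above it on 1 CTRL ASO array only. Neither passed, and Vldlr, whose log2 fold change was positive (0.39, adjusted p = 0.385), did not pass. Nor did any of the cell death genes of the list, named after their values were seen: the log2 fold changes were 0.02 for Bbc3, -0.20 for Pmaip1, -0.42 for Tnfrsf10b and 0.43 for Bcl2l11, and Bbc3 and Pmaip1 were below background on all arrays. Among markers of other heart cells, 1 passed in the comparison over both ASOs, where 1.04% of all clusters passed in either direction. It was Cd163, of resident macrophages, which was below background on all 8 OMA1 ASO arrays. Cd163 fell at least 1.80-fold (fitted log2 fold change -2.04 ± 0.20 SE, limma adjusted p = 5.68e-06). The other macrophage markers did not pass and went both ways. Their log2 fold changes over both ASOs were 0.79 for Adgre1, 0.64 for Ccr2, 0.36 for C1qa, -0.52 for Mrc1 and -0.71 for Csf1r. The means of the 6 measured macrophage markers overlapped. They were 7.32 to 7.38 with OMA1 ASO2, 5.68 to 7.47 with OMA1 ASO1 and 6.76 to 7.63 with CTRL ASO. The part of these markers in the fall of the factors was not tested.

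To see how the factors vary together from mouse to mouse, each array was expressed as its deviation from its own treatment mean, since no treatment has the 6 arrays that a correlation needs. Over the 44 pairs of clusters of different genes, the Pearson r over 13 arrays ranged from -0.82 (Atf5 and Ddit3 cluster 1) to 0.94 (Atf4 and Cebpb), with a median of 0.11, and 25 of the 44 were above 0. Without OMA1 ASO1 replicate 5 the median was 0.25 and 31 of the 44 were above 0, and without CTRL ASO replicate 1 the median was 0.28. Over the clusters above background on at least 7 arrays it was -0.0055, so the median has no settled sign. Within the treatments, some pairs thus deviated together and others in opposite directions. The map of deviations shows which arrays carry each pair.

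**Figure D3:**
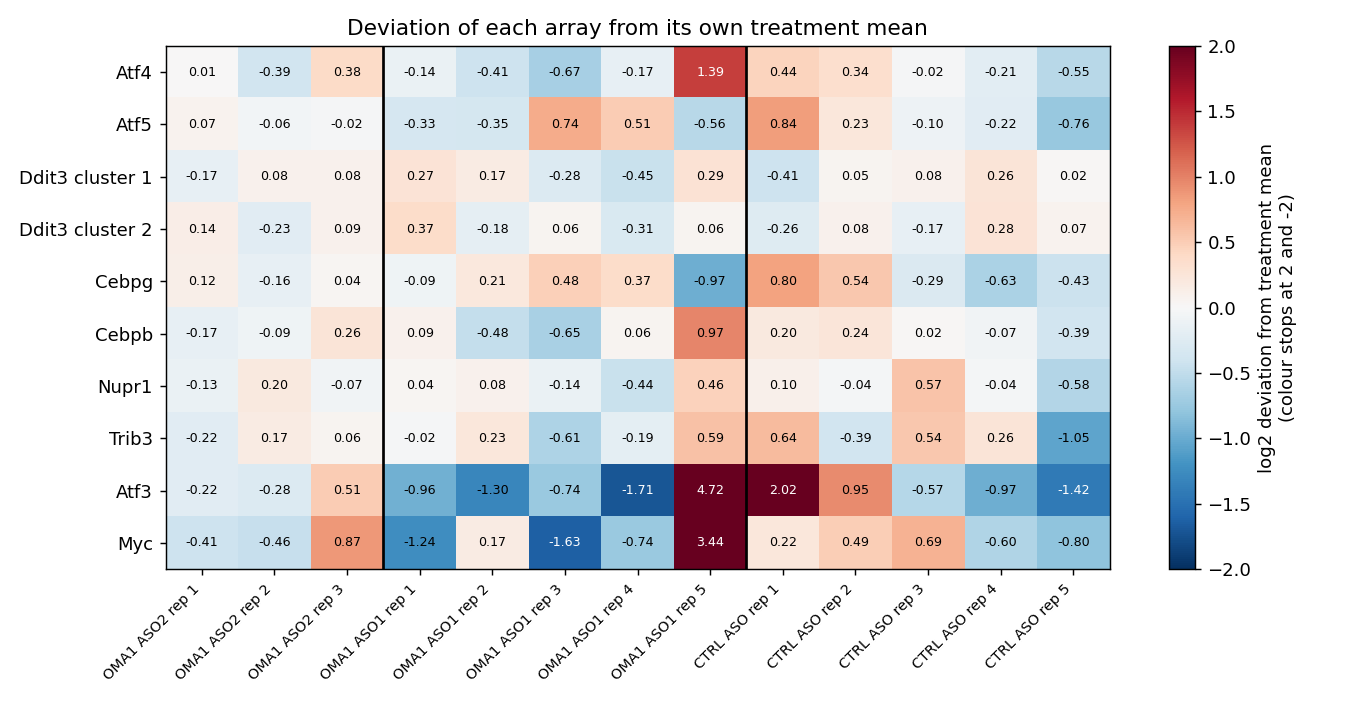
Log2 deviation of each of the 13 arrays (columns, OMA1 ASO2, then OMA1 ASO1, then CTRL ASO) from its own treatment mean for the 10 clusters (rows), with the value in each cell and colours that stop at 2 and -2. OMA1 ASO1 replicate 5 is far above its mean in Atf4, Cebpb, Atf3 and Myc and below it in Atf5 and Cebpg.

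Atf4 deviated together with Cebpb, Atf3 and Myc. Over 13 arrays, r was 0.94 with Cebpb (rho 0.88, exact permutation p = 0.000127 for r and 0.000255 for rho, adjusted p = 0.00115 and 0.00229 over the 9 pairs with Atf4), 0.92 with Atf3 (rho 0.80, exact p = 0.00278 and 0.00539, adjusted p = 0.0125 and 0.0209), and 0.89 with Myc (rho 0.77, exact p = 0.00515 and 0.00696, adjusted p = 0.0155 and 0.0209). The test was two-sided and exchanged arrays within treatments. Leaving out the 2 arrays farthest from the median of Atf4 (OMA1 ASO1 replicate 5 and CTRL ASO replicate 1) gave r of 0.85 with Cebpb (exact p = 0.00289), 0.64 with Atf3 (exact p = 0.0845) and 0.65 with Myc (exact p = 0.0596). The relations with Atf3 and Myc were thus weaker without these arrays, and their exact p was no longer under 0.05. Without OMA1 ASO1 replicate 5 alone, the adjusted exact p was 0.00573 for Cebpb, 0.130 for Atf3 and 0.149 for Myc. Cebpb was above background on only 5 of the 13 arrays, so the order of its low values is uncertain.

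Atf4 did not deviate together with the factors that fell with it as clearly. Its r was -0.07 with Atf5, -0.25 with Cebpg, 0.20 with Ddit3 cluster 1, 0.03 with Ddit3 cluster 2, 0.50 with Nupr1 and 0.55 with Trib3, and none of these passed (exact permutation, smallest adjusted p = 0.118 over 9 pairs). For Cebpg the sign turned with 1 array: r was 0.60 over the 12 arrays without OMA1 ASO1 replicate 5 (adjusted exact p = 0.246).

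All 44 pairs were also tested, a choice made after the data were seen. By r, 6 pairs had an adjusted exact p under 0.05 over 13 arrays, and 1 of them (Atf4 and Cebpb) did so without OMA1 ASO1 replicate 5, while by rho the count was 1 over 13 arrays. Atf5 and Cebpg deviated together, passing by r and not by rho (r = 0.82, rho = 0.81, exact p = 0.00326 and 0.00532, adjusted p = 0.0453 and 0.0593), and so did Nupr1 and Trib3 (r = 0.81, rho = 0.80, exact p = 0.00499 and 0.00288, adjusted p = 0.0453 and 0.0593). Ddit3 cluster 1 ran against Cebpg, passing by r and not by rho (r = -0.73, rho = -0.66, exact p = 0.00625 and 0.0190, adjusted p = 0.0458 and 0.111). Its r with Atf5 was -0.82, which did not pass (rho = -0.74, exact p = 0.00986 and 0.0189, adjusted p = 0.0567 and 0.111). No pair with Ddit3 cluster 2 was among the 6, so the opposition is given for cluster 1 and not read as a trait of Ddit3. Without the 2 farthest arrays of the first-named gene, r was 0.70 for Atf5 and Cebpg (exact p = 0.0700), 0.68 for Nupr1 and Trib3 (exact p = 0.0345), -0.68 for Atf5 and Ddit3 cluster 1 (exact p = 0.0909) and -0.63 for Ddit3 cluster 1 and Cebpg (exact p = 0.0839). Trib3 was below background on all OMA1 ASO arrays. The 4 correlations kept their sign over the 12 arrays without OMA1 ASO1 replicate 5, at 0.80, 0.77, -0.79 and -0.69 in the same order.

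**Figure D4:**
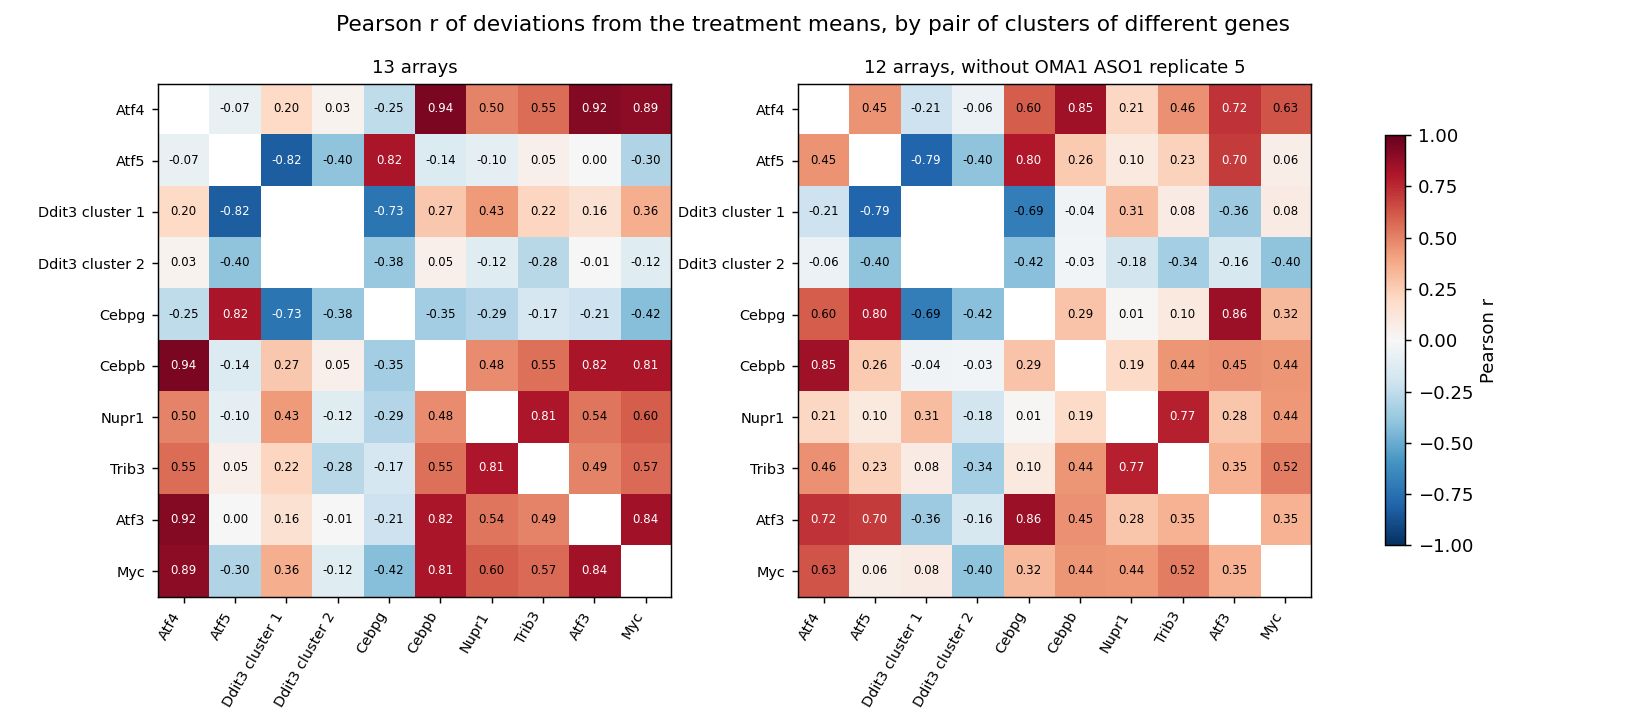
Pearson r (colour and number in each cell) of the deviations from the treatment means for each pair of clusters of different genes, over 13 arrays on the left and over the 12 arrays without OMA1 ASO1 replicate 5 on the right. The block of Atf4, Cebpb, Atf3 and Myc is weaker on the right, Atf5 with Cebpg and Nupr1 with Trib3 are high on both, and Ddit3 cluster 1 is negative with Atf5 and Cebpg on both.

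Within each treatment, the highest and lowest arrays are given as a description, without the counts over all clusters. With so few arrays, each would be at an extreme for several clusters in any case, so no shared pattern is read from them. Among the OMA1 ASO2 arrays, replicate 3 was highest for 5 of the 10 clusters (Atf4, Ddit3 cluster 1, Cebpb, Atf3 and Myc) and replicate 2 lowest for 6. Among the OMA1 ASO1 arrays, replicate 5 was highest for 7 of the 10 and lowest for the 2 clusters of Atf5 and Cebpg. Among the CTRL ASO arrays, replicate 1 was highest for 5 (Atf4, Atf5, Cebpg, Trib3 and Atf3) and lowest for both Ddit3 clusters, and replicate 5 was lowest for 7.

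The immediate early genes were set beside the factors as a description, with no test. OMA1 ASO1 replicate 5 had an Egr1 signal of 17.14, against 8.02 to 9.36 on the other OMA1 ASO1 arrays, and a Fos signal of 11.73, against 3.75 to 4.41. OMA1 ASO2 replicate 3, the highest OMA1 ASO2 array in Atf4, Atf3 and Myc, also had the highest list mean of its treatment (8.44, against 7.12 and 7.63). With CTRL ASO, the 3 arrays with list means of 7.83 to 7.98 had Atf4 signals of 14.13 to 14.59 and Myc signals of 10.91 to 11.37, while the 2 with means of 7.13 and 7.24 had Atf4 signals of 13.60 and 13.94 and Myc signals of 9.88 and 10.09. Atf3 did not follow the same order there, since the array with the highest list mean (7.98) had an Atf3 signal of 8.54, below the 11.12 and 10.06 of the arrays at 7.83 and 7.84. On the other OMA1 ASO1 arrays, list means of 7.52, 7.24, 7.19 and 7.16 stood beside Myc signals of 6.66, 8.07, 6.28 and 7.16 and Atf3 signals of 7.29, 6.94, 7.50 and 6.53, with no shared order. The part of these genes in the variation of the factors was not tested.

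**Figure D5:**
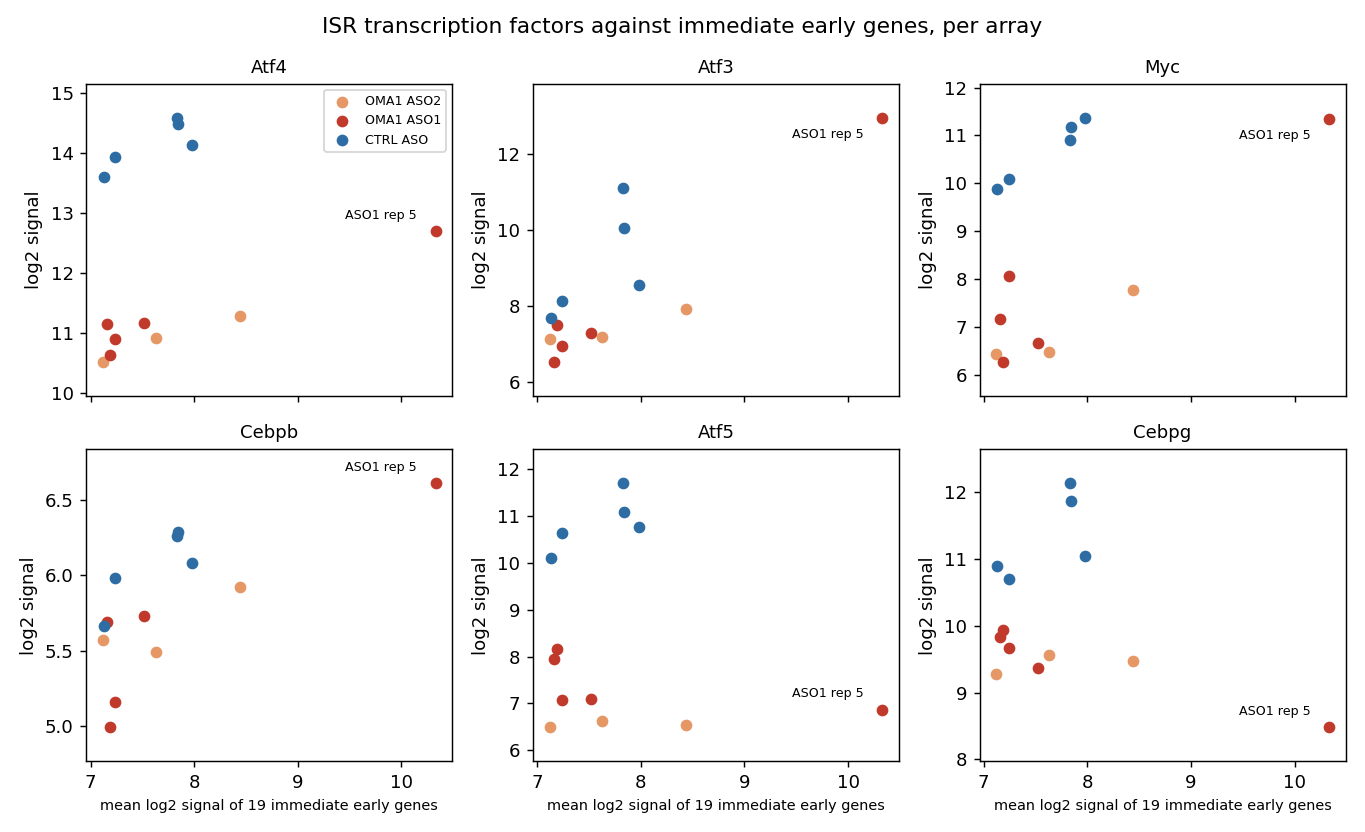
Log2 signal (vertical axes) of 6 factors against the mean log2 signal of 19 immediate early genes (horizontal axis) on each array of OMA1 ASO2, OMA1 ASO1 and CTRL ASO. OMA1 ASO1 replicate 5, with a list mean of 10.33, is the highest of all arrays in Atf3 and Cebpb, within the CTRL ASO range in Myc, between the treatments in Atf4, and the lowest OMA1 ASO1 array in Atf5 and Cebpg.

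The genes most like Atf4 and Myc were sought among 8589 clusters that have a symbol, belong to no member and were above background on at least 7 arrays. Over the deviations from the treatment means, those with the highest r to Atf4 were S1pr1 (0.97), Irs2 (0.96), Tinagl1 (0.96), Nup98 (0.95) and Btg2 (0.94), the last an immediate early gene. Over the 13 log2 signals, which include the difference between the treatments, they were Agap1, Sars, Slc7a5, Nars and Slc7a1 (0.96 to 0.97), of which 4 are on the list of targets. For Myc they were Pim3 (0.96), Klf15 (0.95), Mdm4 (0.95), Hsbp1l1 (0.95) and Nfkbia (0.94) over the deviations, and Kctd6, Trp53inp1, Gclm, Zfp110 and Ddx21 (0.91 to 0.93) over the log2 signals. These are descriptions, and the 13 arrays include OMA1 ASO1 replicate 5.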

How the data were processed

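RNA from 13 mouse hearts was measured on Clariom S Mouse arrays. The deposited values are log2 signals that the authors made with Transcriptome Analysis Console at default settings, already background-corrected, normalized between arrays and summarized per transcript cluster. The 6640 control probe sets were left out, and all other clusters (22206, of which 19572 have 1 gene symbol) entered the fits whatever their signal. No source used here names the genome build of the annotation.

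Differences were fitted with limma 3.58.1 (R 4.3.3, lmFit and eBayes) and adjusted by Benjamini-Hochberg over all clusters, and clusters with an adjusted p below 0.01 were called. The script was tested on simulated data. OMA1 ASO arrays were pooled for 1 comparison. The others came from a model of the 3 treatment means. Intervals are 95%. "At least" folds set the mean of the other treatment against the higher of background and signal on each dim array. Correlations were tested by exact permutation within treatments (scipy 1.17.1, numpy 2.4.6).

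All 10 clusters are named. From other lists, genes called over both ASOs and up to 4 more by p may be named, as may the 5 clusters most like Atf4 and Myc by each measure. Dele1, Eif2ak1, Fos, Egr1, Herpud1, the cell death genes and the macrophage markers other than Cd163 were named after their values were seen. The members and lists were chosen with earlier results of these data known. Alternatives were other normalizations, weights, filters and covariates, the replicate number as a block, a threshold of 0.05 and each array left out. The number of arrays limits the precision.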

Additional observations from a re-analysis of the deposited data

Results flagged for a closer look

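The gap between the highest or lowest array and the next was set against Dixon's critical share of the range in 30 sets. The sets were the 10 clusters in OMA1 ASO1, in all OMA1 ASO arrays and in CTRL ASO. Chance exceeds the critical share in about 1 in 20 sets, but these sets overlap, so the count is not weighed against that rate. The critical share was exceeded 6 times, in 4 clusters and always on OMA1 ASO1 replicate 5. That array was the highest in Atf4 (12.70, among the 5 OMA1 ASO1 and among the 8 OMA1 ASO arrays), in Atf3 (12.96, among both) and in Myc (11.34, among the 8), and the lowest in Cebpg (8.48, among the 8). Its immediate early genes averaged 10.33, against 7.12 to 8.44 on the other OMA1 ASO arrays. No member differed between OMA1 ASO2 and OMA1 ASO1 by limma (smallest adjusted p = 0.503).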

How the results depend on the processing

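Over both ASOs, the 7 clusters that passed kept their direction and passed under all 22 alternatives, with log2 fold changes of -3.97 to -1.51 and a largest adjusted p of 0.00417 (limma). The count of clusters was 7 to 8 over both ASOs and with OMA1 ASO1, 5 to 8 with OMA1 ASO2 and 0 between the ASOs. Leaving out single arrays gave the same ranges. Myc also passed over both ASOs at a threshold of 0.05, with array weights, with the ASOs weighted equally and without OMA1 ASO1 replicate 5. With OMA1 ASO2, Cebpg lost its call under 9 of the 22 alternatives (adjusted p up to 0.0589), namely with the Y-linked covariate and when any of CTRL ASO replicates 1, 2 and 3, OMA1 ASO1 replicates 1 and 2 or OMA1 ASO2 replicates 1, 2 and 3 was dropped. Between the ASOs, differences near 0 turned sign. That of Ddit3 cluster 2 (0.06) was -0.02 without OMA1 ASO1 replicate 4 and -0.01 without OMA1 ASO2 replicate 1. Over all arrays left out in turn, that of Cebpg (-0.02) ran from -0.26 to 0.10, that of Cebpb (0.03) from -0.14 to 0.27 and that of Atf3 (-0.84) from -1.27 to 0.34, the last without OMA1 ASO1 replicate 5. The median r of the 44 pairs was 0.11, 0.17 after median centring, 0.16 with Spearman's rho, -0.0055 over clusters above background on at least 7 arrays, and 0.10 to 0.28 when 1 array was left out, the largest being 0.28 when CTRL ASO replicate 1 was dropped, then 0.25 when OMA1 ASO1 replicate 5 and 0.18 when OMA1 ASO1 replicate 1 was. The cause was not tested. Counts over all clusters moved by over 1.5 times at a threshold of 0.05 (506 over both ASOs, against 230; 355 with OMA1 ASO2, against 169; 412 with OMA1 ASO1, against 204; 51 between the ASOs, against 23). Between the ASOs they were also 39 with a trended, robust fit and 9 with only those arrays, and with OMA1 ASO2 107 with the Y-linked mean as a covariate. Over both ASOs they were 142 without CTRL ASO replicate 2 and 149 without CTRL ASO replicate 4. With OMA1 ASO2 they were 269 without OMA1 ASO1 replicate 5, 110 without CTRL ASO replicate 2, and 110, 99 and 96 without OMA1 ASO2 replicates 1, 2 and 3. Between the ASOs leaving out OMA1 ASO1 replicate 5 gave 38, OMA1 ASO2 replicate 2 gave 8 and OMA1 ASO2 replicate 3 gave 12.

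The deviations of same-numbered arrays had a median r of 0.04 (-0.11 to 0.18 over 11 pairs). Arrays of different number had a median r of -0.02 (-0.13 to 0.19 over 44 pairs). The ranges overlapped, and the difference was not tested. The labels do not say what the number stands for, and what else same-numbered arrays share was not tested. With the replicate number as a block, the counts of clusters were 7 over both ASOs, 6 with OMA1 ASO2, 7 with OMA1 ASO1 and 0 between the ASOs, and 14 of all clusters passed between the ASOs.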
